A study of Homo sapiens with 14 samples.

Results

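The circular RNAs (circRNAs) of exosomes were set against those of the cytosol in HepG2, a human hepatoma cell line. The comparison rests on 4 of the 14 samples of the series, 2 libraries of exosomal RNA and 2 of cytosolic RNA, and asks which soluble circRNAs reach exosomes. Both groups are untreated as far as the labels say, and the labels do not say how either fraction was isolated or whether its 2 samples came from separate cultures, so p-values may measure technical spread alone. Exosomal RNA went into strand-specific libraries without ribosomal RNA depletion, whereas cytosolic RNA was depleted with Ribo-Zero Gold. In the exosomes 442 circRNAs were listed and in the cytosol 5105, together 5178 of the 11227 circRNAs in the 6 deposited tables. The tables hold back-splice junction reads only, so marker proteins or messenger RNAs of exosomes and cytosol could not be checked in them.

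A circRNA forms when the spliceosome joins a downstream splice site of a transcript back to an upstream one, which leaves a closed loop without free ends. Such loops resist exonucleases, are long-lived and collect mainly in the cytoplasm. Exosomes are small vesicles that bud into multivesicular bodies and are released when these fuse with the plasma membrane, and they carry RNA of the cell that shed them. Each circRNA is named here by its host gene, the gene whose span holds both of its ends, with its hg38 coordinates. Exon content was not analysed here.

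The exosomal libraries were shallow in circRNA reads, with 2304 and 2301, against 60701 and 59472 in the cytosolic libraries. Per 10000000 library reads, circRNAs made up 351 and 229 reads in exosomes, mean 290 ± 86.1 (SD, n = 2), against 6430 and 5711 in cytosol, mean 6071 ± 508 (SD, n = 2). The cytosolic mean was 20.9 times the exosomal one, and the libraries did not overlap. An exact two-sided permutation test of 2 against 2 libraries gave p = 0.333, the smallest it can give. The depletion of ribosomal RNA in cytosol alone acts on this ratio by an amount that was not tested. Levels are therefore given as shares, in reads per 1000 circRNA reads of a library, counted over the 4679 circRNAs that both callers (headed Ciri and CIRC in the tables) list in at least 1 table. That set held 1748 and 1209 exosomal reads and 38330 and 35633 cytosolic reads.

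Most circRNAs found in exosomes were also found in the cytosol. Of the 442 exosomal circRNAs, 369 were listed in the cytosol, or 83.5% (95% Wilson interval 79.7 to 86.7). Among circRNAs of the set that both callers list, the share was 335 of 360, or 93.1% (89.9 to 95.3), and all 53 with at least 5 reads in both exosomal libraries were listed in the cytosol. Over all entries 64 of 73 at that depth were, or 87.7%. An exosomal entry of 1 caller is in the set only where some table lists it by both callers, which favours listing elsewhere. These 335 shared circRNAs held 97.1% and 96.4% of exosomal reads of the set, against 42.0% and 40.2% of cytosolic reads. Over all listed entries the shared circRNAs held 83.4% and 58.7% of exosomal reads, against 29.8% and 26.8% of cytosolic reads. In the other direction, 369 of 5105 cytosolic circRNAs were listed in exosomes, or 7.23% (6.55 to 7.97), and 335 of 2924 in the set, or 11.5% (10.4 to 12.7). Intervals cover counting error only.

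Listing in exosomes followed abundance in the cytosol. Of the 50 most abundant cytosolic circRNAs, 43 were listed in exosomes, or 86%. The next 50 gave 33, or 66%. Ranks 101 to 200 gave 34 of 100, ranks 201 to 400 gave 56 of 200, and ranks 801 to 1600 gave 50 of 800, or 6.25%. At its median cytosolic share, a circRNA of ranks 1 to 50 would have 7.04 and 4.87 reads in the exosomal libraries, whereas one of ranks 801 to 1600 would have 0.330 and 0.228. A table lists a circRNA only where a caller found at least 1 read in both libraries, so absence of a low-ranked circRNA from exosomes was not detectable at this depth.

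**Figure D1:**
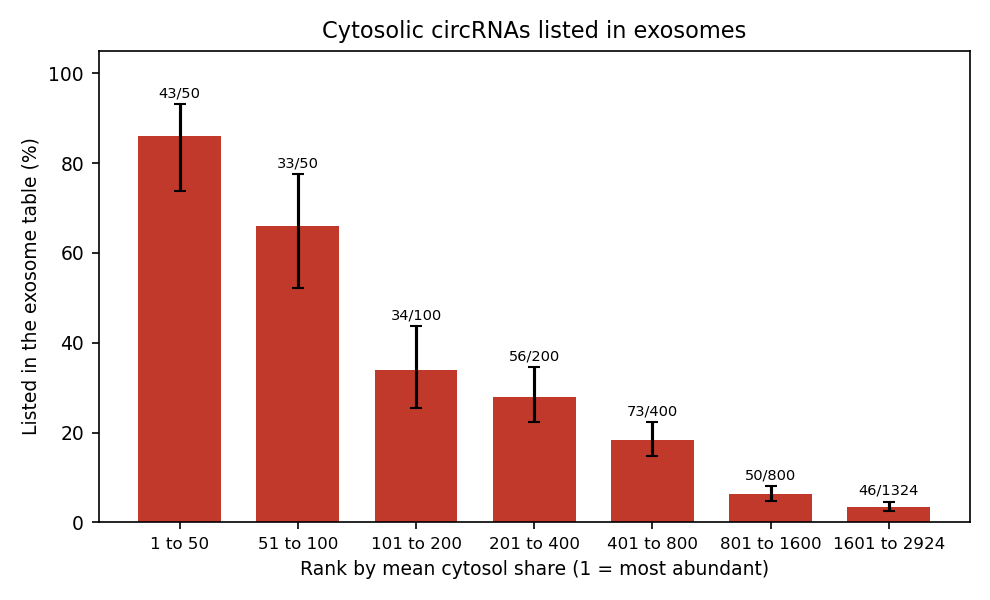
Percent of cytosolic circRNAs that the exosome table lists (vertical axis) by rank of mean cytosol share (horizontal axis), with 95% Wilson intervals and the counts above the bars. The percent was 86 in ranks 1 to 50 and 3.47 in ranks 1601 to 2924.

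The same depth sets a floor under ratios. A single read in each library is a share of 0.700 per 1000 in exosomes and of 0.0271 per 1000 in cytosol, so any circRNA that is rare in the cytosol has a high exosome-to-cytosol ratio once exosomes list it. The median log2 ratio of shares of the listed circRNAs was 0.43 in cytosolic ranks 1 to 50, 0.74 in ranks 51 to 100, 1.80 in ranks 201 to 400 and 3.88 in ranks 1601 to 2924. The 100 most abundant cytosolic circRNAs, a choice that uses no exosomal read, are least touched by this floor and are described first.

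Of those 100, 76 were listed in exosomes (76%, interval 66.8 to 83.3). They held 44.0% and 37.6% of exosomal reads, against 34.4% and 34.0% of cytosolic reads. Among the 76, the exosome-to-cytosol ratio of mean shares ran from 0.318 to 5.40 with a median of 1.58, and it was above 1 for 57 and below 1 for 19. The libraries did not overlap for 35 circRNAs with exosomes above, nor for 33 with exosomes below, of which 24 were unlisted. Over all 950 circRNAs tested, 29.6% lay above without overlap and 54.4% below. In edgeR's quasi-likelihood test on shares (Benjamini-Hochberg adjusted p under 0.05), 16 of the 100 were higher in exosomes and 26 lower, and 58 were not called. The background over the 950 circRNAs was 16.9% higher and 4.74% lower. Lower calls numbered 9, 17 and 19 in cytosolic ranks 1 to 50, 51 to 100 and 101 to 200, and 0 in each later block. In ranks 201 to 400 the median cytosolic share would give only 1.13 and 0.783 exosomal reads. The 4.74% is therefore not a like base for these 100. Of the 26 lower calls 24 were unlisted in exosomes, and the others were circRNAs of CPSF6 and RBM39.

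The direction of many calls depended on the scale. On shares, 161 circRNAs were higher and 45 lower of 950. With edgeR's TMM factors 48 were higher (5.05%) and 393 lower (41.4%). These factors brought circRNAs listed in both tables near no change, with a median log2 fold change of -0.06, against 1.88 on shares. Those circRNAs are the ones that cleared the floor described above, so TMM is not a neutral scale either. The TMM factors were 2.61 and 2.70 in exosomes and 0.677 and 0.683 in cytosol. Calls kept in 4 fits, on shares and with TMM factors, each with unlisted circRNAs entered at 0 and at 1 read, were 34 higher (3.58% of 950) and 3 lower (0.316%), or 3.89% in either direction. Changes below are in shares, and a circRNA called kept passed in all 4 fits. Leaving out a library moved the counts most on the exosomal side: without exosome replicate 1 there were 49 higher and 1 lower, and without exosome replicate 2 there were 79 higher and 0 lower by edgeR (18 and 54 lower at an unadjusted p under 0.05). Each fit without 1 exosomal library tested 1494 circRNAs in place of 950, so its counts are not on the same base. The ± of a log2 fold change is its approximate standard error. Of the 161 higher calls 143 were listed in both tables and 18 were unlisted in cytosol, and these 18 were all the tested exosomal circRNAs that the cytosol table lacks. Of the 45 lower calls 43 were unlisted in exosomes. The filter on low counts also favours higher calls: 85 of the 950 passed it only through the exosomal libraries, among them 48 of the 161 higher calls and 11 of the 34 kept ones, so these counts are descriptions.

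**Figure D2:**
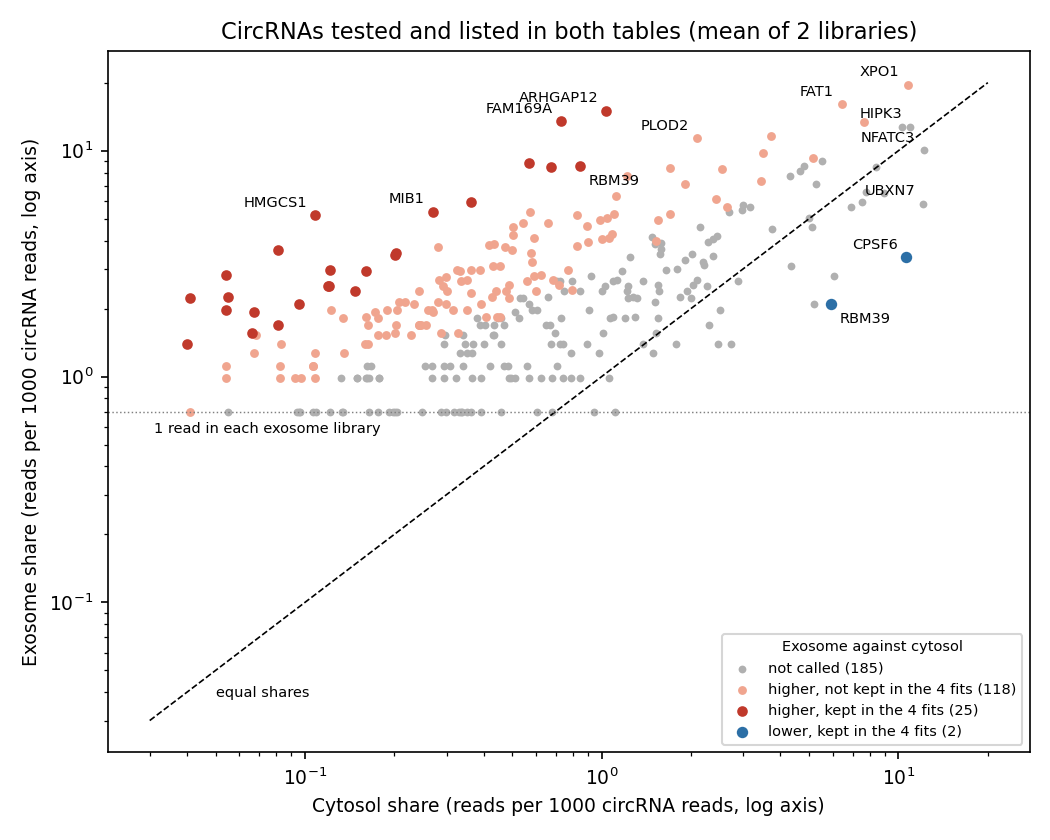
Mean share over 2 libraries in exosomes (vertical log axis) against cytosol (horizontal log axis), in reads per 1000 circRNA reads, for the 330 tested circRNAs listed in both tables. No point lies below the dotted line, the share of 1 read in each exosomal library (0.700 per 1000), and 2 of the calls kept in the 4 fits lie below the dashed line of equal shares, CPSF6 and 1 RBM39 circRNA.

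The most abundant exosomal circRNA of the set came from XPO1, the gene of the main nuclear export receptor (chr2:61522611-61533903). It had 41 and 19 reads in exosomes, against 387 and 407 in cytosol, or 19.6 ± 5.47 per 1000 in exosomes and 10.8 ± 0.937 in cytosol (SD, n = 2 each). Both exosomal shares lay above both cytosolic ones. The log2 fold change was 0.89 ± 0.28 on shares (edgeR adjusted p = 0.0177), and -1.06 with TMM factors. The call was lost without exosome replicate 1 (adjusted p = 0.81) and without cytosol replicate 1 (adjusted p = 0.0715).

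Second came a circRNA of FAT1, an atypical cadherin (chr4:186706563-186709845), with 30 and 18 reads in exosomes and 275 and 203 in cytosol. Its shares were 16.0 ± 1.61 per 1000 in exosomes and 6.44 ± 1.04 in cytosol (SD, n = 2 each), without overlap. Other fractions lay above exosomes, with 27.9 in whole cells, 27.6 in nucleus, 24.2 in cytoplasm and 42.8 in the ribosome fraction. The log2 fold change was 1.33 ± 0.29 (edgeR adjusted p = 7.2e-04), and -0.63 with TMM factors. Without exosome replicate 1 it did not pass (adjusted p = 0.064).

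The third and the fourth most abundant exosomal circRNAs of the set were of a different kind, since the cytosol held few reads of them. ARHGAP12, a GTPase-activating protein, hosts the circRNA chr10:31908172-31910563 with 25 and 19 reads in exosomes, against 44 and 33 in the far deeper cytosolic libraries. Its share was 15.01 ± 0.999 per 1000 in exosomes and 1.04 ± 0.157 in cytosol (SD, n = 2 each), a log2 change of 3.84 ± 0.35 (edgeR adjusted p = 9.2e-12) that was kept. In exosomes only the caller headed Ciri listed it, and with the reads of CIRC alone the direction turned. The other cell fractions held 8.64 per 1000 in whole cells, 5.34 in nucleus, 8.58 in cytoplasm and 3.60 in the ribosome fraction, so the cytosolic share was the lowest of the 6 fractions. The call passed with any 1 of the 4 libraries left out, with log2 changes of 3.91 and 3.78 without exosome replicate 1 and replicate 2.

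FAM169A, a gene of little known function, hosts chr5:74834426-74841679 with 27 and 14 reads in exosomes and 28 and 26 in cytosol. Its share was 13.5 ± 2.73 per 1000 in exosomes and 0.730 in both cytosolic libraries (n = 2 each), a log2 change of 4.22 ± 0.37 (edgeR adjusted p = 7.4e-12) that was kept. Its shares in the other fractions were 6.15 per 1000 in whole cells, 4.39 in nucleus, 4.75 in cytoplasm and 7.37 in the ribosome fraction. Without exosome replicate 1 and replicate 2 the log2 change was 3.98 and 4.39, and both passed. As for ARHGAP12, the exosomal share was the highest and the cytosolic share the lowest of the 6 fractions.

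Next followed a circRNA of MAN1A2, a mannosidase of the Golgi apparatus (chr1:117402186-117420649), with 25 and 15 reads in exosomes and 276 and 289 in cytosol. Shares were 13.4 ± 1.34 per 1000 in exosomes and 7.66 ± 0.643 in cytosol, and the log2 fold change was 0.82 ± 0.31 (edgeR adjusted p = 0.0498) on shares and -1.14 with TMM factors. It did not pass with any 1 library left out (adjusted p between 0.0651 and 0.73). ZCCHC2, a zinc finger protein gene (chr18:62539681-62550460), gave 16 and 17 reads in exosomes and 177 and 100 in cytosol. Its log2 fold change was 1.60 ± 0.40 (edgeR adjusted p = 0.0024) on shares and -0.36 with TMM factors, and it did not pass without exosome replicate 2 (adjusted p = 0.12). PLOD2, a collagen lysyl hydroxylase of the endoplasmic reticulum, hosts chr3:146121112-146124229 with 18 and 15 reads in exosomes and 75 and 80 in cytosol. Its shares were 11.4 ± 1.49 and 2.10 ± 0.204 per 1000 (exosomes and cytosol, SD, n = 2 each), without overlap. PLOD2 had the highest ratio, 5.40, of the 76 abundant cytosolic circRNAs that exosomes list, with a log2 change of 2.41 ± 0.37 (edgeR adjusted p = 3.4e-06) that passed with any 1 library left out. With TMM factors it was 0.46 and did not pass (adjusted p = 0.28).

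The circRNAs of HIPK3, CDYL and SMARCA5, which are well known, lay above the cytosolic shares in both exosomal libraries, but the differences did not pass. HIPK3, a kinase gene whose single large exon gives the circRNA chr11:33286413-33287511, had 23 and 15 reads in exosomes and 408 and 402 in cytosol. Shares were 12.8 ± 0.531 per 1000 in exosomes and 10.96 ± 0.451 in cytosol (SD, n = 2 each), with a log2 fold change that did not pass (0.23 ± 0.31, edgeR adjusted p = 0.56). CDYL, a chromatin reader, hosts chr6:4891713-4892379 with 23 and 15 reads in exosomes and 431 and 333 in cytosol, a log2 change of 0.32 ± 0.31 (edgeR adjusted p = 0.43). With TMM factors the changes were -1.73 for HIPK3, -1.64 for CDYL and -1.21 for SMARCA5. SMARCA5, a chromatin remodelling ATPase (chr4:143543509-143543972), had 11 and 12 reads in exosomes and 154 and 190 in cytosol. Its shares were 8.11 ± 2.57 per 1000 in exosomes and 4.67 ± 0.929 in cytosol (SD, n = 2 each), and the change did not pass (0.75 ± 0.37, edgeR adjusted p = 0.13).

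NFATC3, a transcription factor of the calcineurin pathway, hosts the most abundant cytosolic circRNA of the set (chr16:68121987-68126610), with 12 and 16 reads in exosomes and 499 and 402 in cytosol. The shares of 10.05 ± 4.50 per 1000 in exosomes and 12.2 ± 1.23 in cytosol overlapped (-0.34 ± 0.35, edgeR adjusted p = 0.45). UBXN7, an adaptor of the VCP segregase, came second in the cytosol (chr3:196391813-196403019). Its reads, 16 and 3 in exosomes against 403 and 490 in cytosol, gave a log2 change of -0.94 ± 0.39 (edgeR adjusted p = 0.077). The exosomal shares lay below the cytosolic ones, and whether the call passed depended on the setting: it passed with TMM factors (adjusted p = 1.1e-07), in a fit of the 4 libraries alone (0.0327) and without exosome replicate 1 (0.0285), among other settings, and did not with Ciri reads (0.23), DESeq2 (0.13) or without exosome replicate 2 (0.67). Circles of PNN, FAM13B and VAPA, also among the 10 most abundant of the cytosol, had exosomal shares that overlapped the cytosolic ones, with log2 fold changes of 0.10, -0.41 and -0.27 on shares.

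**Figure D3:**
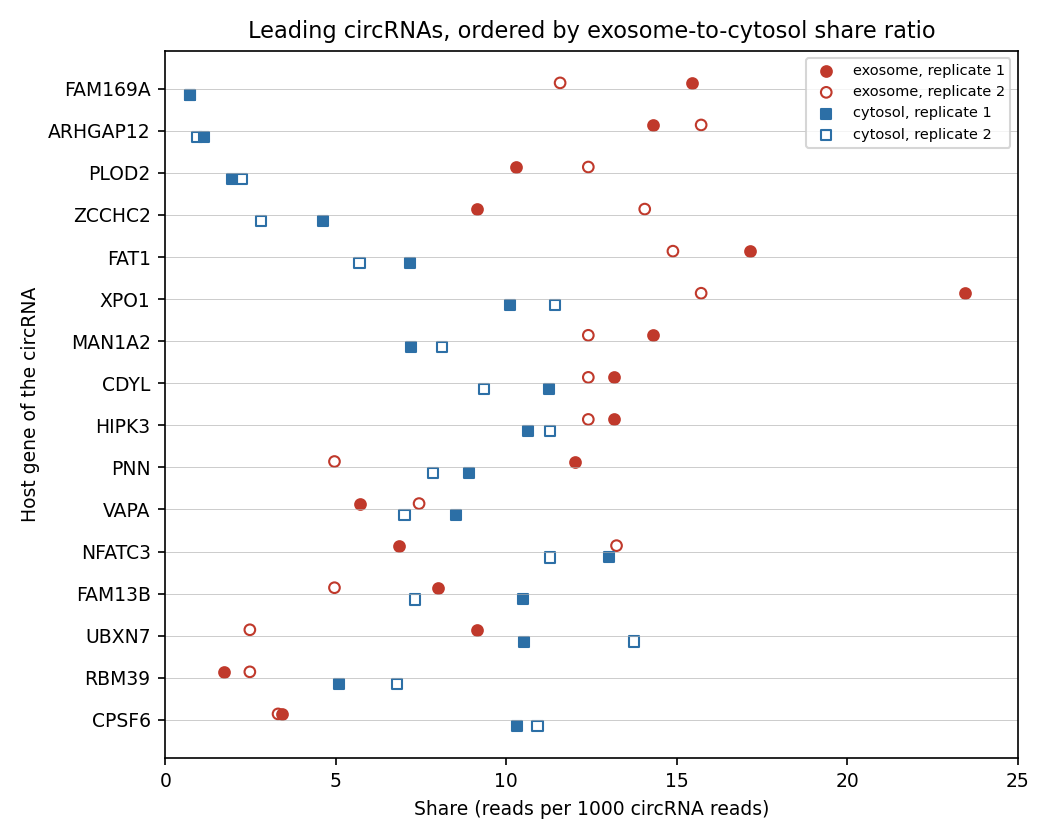
Share of each library, in reads per 1000 circRNA reads (horizontal axis), for the 10 most abundant circRNAs of exosomes, the 10 most abundant of cytosol and the lower calls that are listed in both tables, by host gene; circles are exosomes and squares are cytosol. FAM169A and ARHGAP12 at the top have the widest gap, HIPK3 and CDYL lie close together, and CPSF6 at the bottom has both exosomal shares near 3.37 per 1000, against 10.6 in cytosol.

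Lower calls were few, and those with reads on both sides came from 2 genes of RNA processing. CPSF6, a subunit of the complex that cleaves messenger RNA 3' ends, hosts chr12:69251129-69262562 with 6 and 4 reads in exosomes and 395 and 389 in cytosol. Its share was 3.37 ± 0.0877 per 1000 in exosomes and 10.6 ± 0.432 in cytosol (SD, n = 2 each), a log2 change of -1.65 ± 0.43 (edgeR adjusted p = 0.0039) that was kept. The share was 9.30 per 1000 in the ribosome fraction, 2.73 in cytoplasm, 2.38 in whole cells and 2.23 in nucleus. RBM39, a splicing coactivator, hosts chr20:35729312-35732135 with 3 and 3 reads in exosomes and 195 and 242 in cytosol. That is 2.10 ± 0.541 per 1000 in exosomes and 5.94 ± 1.20 in cytosol, a log2 change of -1.54 ± 0.53 (edgeR adjusted p = 0.0308), also kept. The exosomal entry was that of Ciri alone, and with Ciri reads the call was lost (-1.16, adjusted p = 0.14), as it was with DESeq2 (0.0911), without a filter (0.13), with at least 5 reads in 2 libraries (0.0846) and over all listed circRNAs (0.0564). With either exosomal library left out neither passed, with adjusted p of 0.13 and 0.0556 for CPSF6 and 0.67 and 0.16 for RBM39 (without replicate 1 and 2), and RBM39 did not pass without cytosol replicate 2 (0.0966).

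The third lower call that was kept was a circRNA of HNRNPC, an RNA-binding protein of nuclear pre-mRNA (chr14:21230319-21234229), which exosomes did not list, with 113 and 84 reads in cytosol. At its cytosolic share it would have 4.64 and 3.21 reads in the exosomal libraries. The 24 abundant cytosolic circRNAs that exosomes did not list would have between 2.57 and 5.03 reads in exosome replicate 1 and between 1.78 and 3.48 in replicate 2, so the listing of each rested on a few reads. HNRNPC did not pass without exosome replicate 1 (adjusted p = 0.17) or replicate 2 (adjusted p = 0.0515). No fold change is given for them. The most abundant of these was that of USP25, a deubiquitinase (chr21:15762891-15766141), with 100 and 112 reads in cytosol. Others came from SDF4, a calcium-binding protein of the Golgi lumen (76 and 117 cytosolic reads), TMED2, a cargo receptor of the early secretory pathway (82 and 97), and GOLPH3, a Golgi phosphoprotein (89 and 82). NFAT5, PALS2, GPBP1L1 and MTUS1 complete the 10 most abundant with the long MAN1A2 circle. The SDF4 circRNA reached 20.9 per 1000 in the nucleus, against 2.63 ± 0.920 in cytosol (SD, n = 2).

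Kept higher calls with wide ratios rest on few cytosolic reads, and only some of them are given here. HMGCS1, a cholesterol synthesis enzyme (chr5:43295752-43297166), had 8 and 7 reads in exosomes and 4 and 4 in cytosol, a log2 change of 5.48 ± 0.69 (edgeR adjusted p = 6.6e-08). A second HMGCS1 circRNA that shares its end (chr5:43292474-43297166) had 2 and 4 reads in exosomes and 1 and 2 in cytosol and was also kept. PSMB5, a catalytic subunit of the proteasome (chr14:23033368-23033674), had 4 and 6 reads in exosomes and 3 and 3 in cytosol (5.30 ± 0.76, edgeR adjusted p = 8.7e-07). MIB1, an E3 ubiquitin ligase of Notch signalling (chr18:21765772-21779685), had 13 and 4 reads in exosomes and 10 and 10 in cytosol (4.36 ± 0.59, edgeR adjusted p = 2.1e-07). Mitotic cyclin gene CCNB1 (chr5:69174877-69175537) had 5 and 2 reads in exosomes and 1 and 3 in cytosol (5.30 ± 0.91, edgeR adjusted p = 2.1e-05). GCN1, a ribosome-binding activator of the integrated stress response (chr12:120154970-120155719), had 7 and 2 reads in exosomes and 2 and 2 in cytosol (5.66 ± 0.89, edgeR adjusted p = 4.7e-06), but those exosomal reads came from Ciri and those cytosolic reads from CIRC, whose reads alone turned the direction. Without exosome replicate 1, GCN1 and CCNB1 did not pass (adjusted p = 0.0751 and 0.0734), and without replicate 2 the second HMGCS1 circRNA did not (0.0633).

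Among kept circRNAs with more cytosolic reads, RTN4, a shaper of endoplasmic reticulum tubules (chr2:54982515-54987698), had 15 and 10 reads in exosomes and 27 and 23 in cytosol. That gave 8.43 ± 0.219 per 1000 in exosomes and 0.675 ± 0.0417 in cytosol (3.63 ± 0.45, edgeR adjusted p = 4.2e-08). ZBTB44, a zinc finger gene (chr11:130260856-130261929), had 12 and 6 reads in exosomes and 17 and 10 in cytosol (4.03 ± 0.54, edgeR adjusted p = 2.1e-07). EPS15, an endocytic adaptor (chr1:51402435-51408332), was also kept but had fewer cytosolic reads than MIB1 above. It had 2 and 7 reads in exosomes and 9 and 6 in cytosol, and passed the filter only through exosomes. Its log2 change of 3.89 ± 0.74 fell to 2.47 without exosome replicate 2, where the call was lost, and rose without replicate 1. RTN4, ZBTB44 and EPS15 all had both exosomal shares above both cytosolic ones.

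Among the kept circRNAs, 9 were listed in exosomes and unlisted in cytosol. Their calls rest on the value entered for the cytosol, 0 reads or 1 read, so only their exosomal reads are given. WDR33 and ANKHD1 among them passed the filter only through exosomes. RARS1, the cytoplasmic arginyl-tRNA synthetase, hosts chr5:168488602-168497348 with 7 and 3 reads in exosomes. A shorter RARS1 circRNA with the same start (chr5:168488602-168494650) was listed in both, with 9 and 6 reads in exosomes and 208 and 162 in cytosol, and shares of 5.06 ± 0.131 and 4.99 ± 0.622 per 1000 (exosomes and cytosol, SD, n = 2 each). PCCA, a subunit of mitochondrial propionyl-CoA carboxylase, had 6 and 2 exosomal reads, and ATAD2 and CCDC134 had 3 and 4 each. PTP4A2, a phosphatase, had 4 and 3, and APOH, a secreted liver glycoprotein, 3 and 1. Of the 25 exosomal circRNAs of the set that the cytosol table lacks, 23 were listed in the cytoplasm table and 17 in whole cells, and 20 had at most 3 reads in all.

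Several hosts gave more than 1 exosomal circRNA. RBM39 had 4 circRNAs in exosomes, all of them listed in cytosol too. Against the lower circRNA above stood 3 higher ones that share their end. The circRNA chr20:35714185-35725155 had 14 and 11 reads in exosomes and 37 and 26 in cytosol, with shares of 8.55 ± 0.770 per 1000 in exosomes and 0.847 ± 0.167 in cytosol (3.31 ± 0.44, edgeR adjusted p = 2.1e-07, kept). Its neighbours chr20:35716740-35725155 and chr20:35721740-35725155 had log2 fold changes of 3.24 ± 0.59 and 1.96 ± 0.66 (edgeR adjusted p = 5.9e-05 and 0.029). Without exosome replicate 1 both of these neighbours lost their call (adjusted p = 0.25 and 0.62), and the last also without replicate 2 (0.18). The RBM39 circRNA that was lower lies elsewhere in the gene, and the difference between circRNAs of a host was not tested.

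FAM169A had 3 exosomal circRNAs with the same end, and all passed as higher. Besides the one above, chr5:74813840-74841679 had 12 and 13 reads in exosomes and 22 and 20 in cytosol (3.90 ± 0.47, edgeR adjusted p = 3.0e-08, kept), and chr5:74838965-74841679 had 6 and 1 reads in exosomes and 3 and 12 in cytosol (3.49 ± 0.86, edgeR adjusted p = 0.0023). This last entry was of CIRC alone in exosomes and did not pass without exosome replicate 1 (adjusted p = 0.81). Together they made 45 and 28 reads in exosomes, against 55 and 60 in cytosol for the 4 FAM169A circRNAs of the cytosol table. In XPO1 a shorter circRNA with the start of the leading one (chr2:61522611-61526521) had 4 and 4 reads in exosomes and 196 and 249 in cytosol. Its share was 2.80 ± 0.721 per 1000 in exosomes and 6.05 ± 1.33 in cytosol, below without overlap but not called (-1.15 ± 0.50, edgeR adjusted p = 0.084).

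MAN1A2 circRNAs share a start and differ in their end. The 3 with ends at 117405645, 117414831 and 117420649 were listed in exosomes with log2 fold changes of 0.53, 1.01 and 0.82 on shares, of which only the last passed, and of -1.42, -0.95 and -1.14 with TMM factors. The circRNA that ends at 117442325 had 112 and 82 cytosolic reads and was unlisted in exosomes, where its cytosolic share would give 4.57 and 3.16 reads. NFATC3 had the most circRNAs in exosomes, 5, of which 4 were listed among the 11 in cytosol. The shortest of these 4 (chr16:68121987-68123121) had 11 and 6 reads in exosomes and 121 and 112 in cytosol and did not pass (0.86 ± 0.47, edgeR adjusted p = 0.17).

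**Figure D4:**
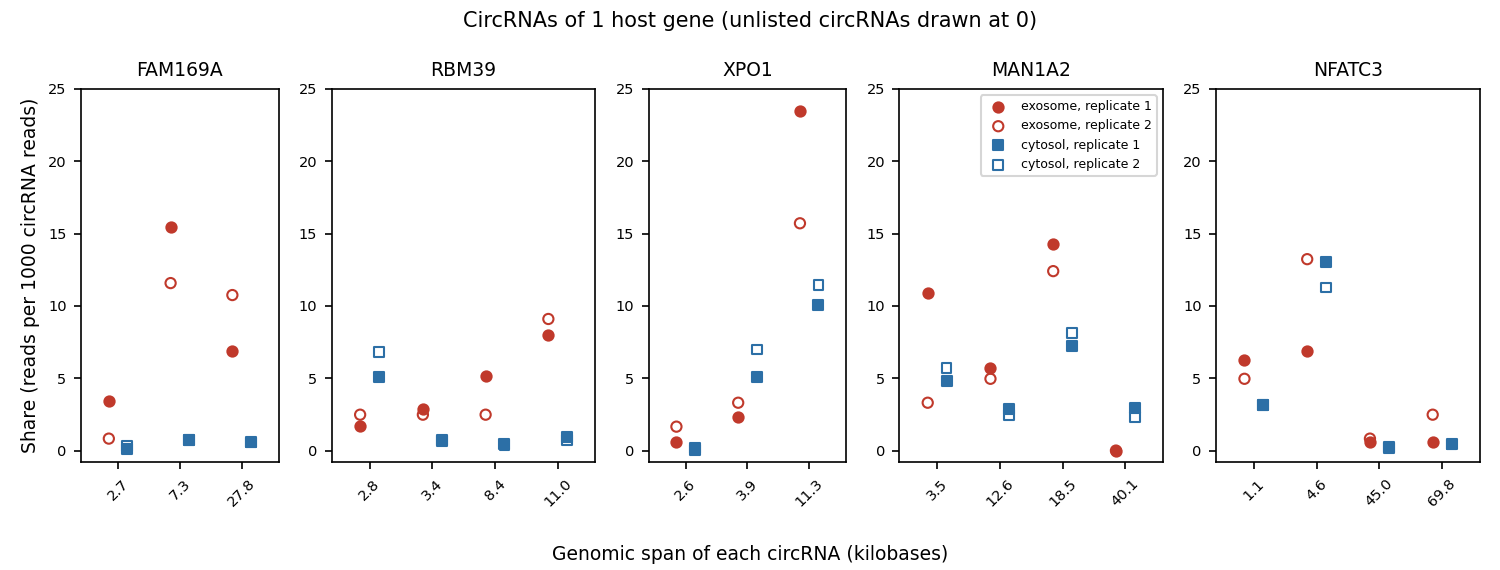
Share of each library (vertical axis, reads per 1000 circRNA reads) for circRNAs of 5 host genes, ordered by genomic span in kilobases (horizontal axis); circles are exosomes and squares are cytosol. In RBM39 the shortest circRNA lies lower in exosomes and the others higher, in FAM169A all lie higher, and the longest MAN1A2 circRNA drawn is unlisted in exosomes.

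Host genes were grouped by 12 lists, some of which overlap, and each list is read beside the whole set. Higher counts of a list can include circRNAs that passed the filter only through exosomes, as did 48 of the 161 higher calls. Lower calls all lay in cytosolic ranks 1 to 200. Differences in summed share were not tested, and with TMM factors the exosome-to-cytosol ratio of summed levels lay below 1 for all 12 lists, from 0.0867 to 0.41, against 0.26 over the set. Of the genes known for their circRNAs, 80 of 226 cytosolic circRNAs (35.4%) were listed in exosomes, against 11.5% over the set. They took 408 and 357 per 1000 in exosomes and 239 and 243 in cytosol, and 30 of 125 tested were higher and 4 lower, beside 16.9% higher and 4.74% lower over the 950 tested. That list was in part drawn with these data in view, so its count is not independent evidence. Of 102 cytosolic circRNAs from small GTPase regulators, 7 were listed in exosomes (6.86%), against 11.5% over the set. This list took 40.0 and 38.9 per 1000 in exosomes and 27.6 and 26.4 in cytosol, with 7 of 30 tested higher (16.9% over all tested). ARHGAP12 alone gave 15.01 per 1000 of the exosomal sum and 1.04 of the cytosolic one. ARHGAP5, another GTPase-activating protein, had 7 and 10 reads in exosomes and 91 and 89 in cytosol (1.25 ± 0.43 on shares, edgeR adjusted p = 0.033, and -0.70 with TMM factors). Its share was 6.14 per 1000 in exosomes and 2.44 in cytosol. The share was higher in the other fractions, at 9.76 in whole cells, 10.6 in nucleus, 7.42 in cytoplasm and 13.5 in the ribosome fraction. ARHGAP5 did not pass without exosome replicate 2 (adjusted p = 0.66) or without cytosol replicate 1 or 2 (0.0654 and 0.0518).

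Hosts of vesicle and membrane trafficking took 41.8 and 53.8 per 1000 in exosomes and 45.2 and 43.98 in cytosol, and the libraries overlapped. Of their 41 tested circRNAs 10 were higher and 2 lower, beside 16.9% and 4.74% over all tested. VAPA, a tether of the endoplasmic reticulum membrane, had 10 and 9 reads in exosomes and 327 and 250 in cytosol, and its relative VAPB 7 and 9 in exosomes and 127 and 96 in cytosol, and neither passed. ESCRT and multivesicular body genes, the machinery that forms exosomes, hosted few circRNAs, with 5 tested. Of these, 2 were ITCH circRNAs that passed the filter only through exosomes, so their higher calls are given no weight. The more abundant of them, from this ubiquitin ligase gene, had 3 and 2 reads in exosomes and 5 and 7 in cytosol, and STAM, a sorting subunit, had 3 and 1 in exosomes and 13 and 13 in cytosol and did not pass.

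Hosts that are RNA-binding and splicing factors took 71.5 and 72.8 per 1000 in exosomes and 71.98 and 73.1 in cytosol, with 11 of 56 tested higher and 3 lower, near the 16.9% and 4.74% over all tested. All 3 kept lower calls (CPSF6, RBM39 and HNRNPC) were in that list. Ubiquitin enzymes and ligases lay lower in summed share, with 46.3 and 43.0 per 1000 in exosomes and 63.1 and 65.98 in cytosol, and 10 of 58 tested were higher and 4 lower, beside 16.9% and 4.74% over all tested. The 10 include the ITCH circRNAs above, which passed the filter only through exosomes and are given no weight. Protein kinases took 47.5 and 48.0 in exosomes and 54.1 and 51.5 in cytosol, with 5 of 46 higher (16.9% over all tested). Chromatin regulators took 89.2 and 85.2 in exosomes and 85.9 and 82.3 in cytosol, with 6 of 59 higher and 4 lower (16.9% and 4.74% over all tested).

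Hosts of the cytoskeleton and motors were listed in exosomes at 3 of 72 cytosolic circRNAs, or 4.17%, with 10.9 and 14.1 per 1000 in exosomes and 16.8 and 17.7 in cytosol. Those listed included CORO1C, an actin-binding coronin (9 and 9 reads in exosomes, 44 and 39 in cytosol, 2.44 ± 0.46, edgeR adjusted p = 1.0e-04, and 0.49 with TMM factors, where it did not pass), and CAMSAP1, which binds microtubule minus ends (8 and 6 in exosomes, 20 and 20 in cytosol, 3.12 ± 0.54, edgeR adjusted p = 2.6e-05). The CAMSAP1 share was 38.2 per 1000 in the nucleus. CORO1C and CAMSAP1 were the 2 higher calls of 16 tested in this list, and 2 were lower (16.9% and 4.74% over all tested). Nuclear transport genes had 3 of 16 tested higher and 1 lower, and translation and tRNA synthetase genes 2 of 11 higher, beside 16.9% higher and 4.74% lower over all tested. Of the 3 from nuclear transport, those of RANBP2 (chr2:108771701-108773046) and XPO1 (chr2:61499713-61502310) passed the filter only through exosomes and are given no weight. Of 13 cytosolic circRNAs from genes of secreted liver proteins, none was listed in exosomes, where 11.5% of the cytosolic circRNAs of the set were, and an APOH circRNA was listed in exosomes alone. Over the 11 lists with such circRNAs, the median log2 fold change of circRNAs listed in both tables was positive on shares, from 0.76 in nuclear transport to 3.33 in ESCRT, against 1.88 over the set. These circRNAs are those that cleared the exosomal floor, and with TMM factors the median over the set was -0.06. The ESCRT median covers 3 circRNAs and is the value of an ITCH circRNA. That circRNA passed the filter only through exosomes, so this median is given no weight.

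**Figure D5:**
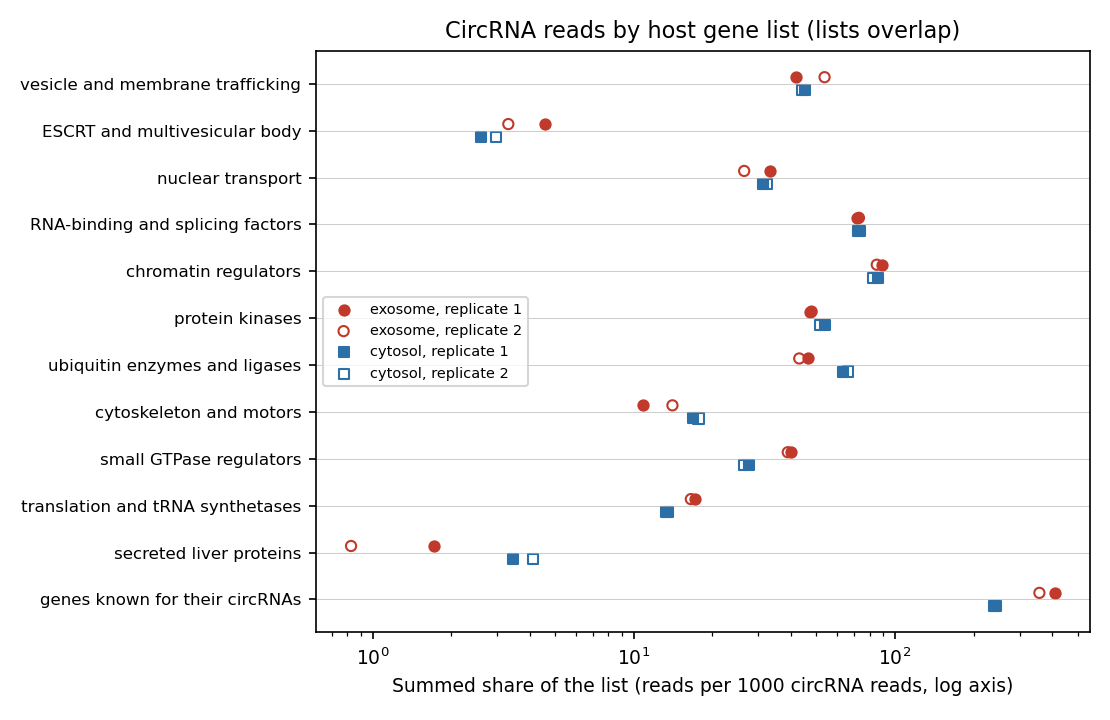
Summed share of each library, in reads per 1000 circRNA reads (horizontal log axis), for 12 lists of host genes; circles are exosomes and squares are cytosol. On the share scale, genes known for their circRNAs and small GTPase regulators lie higher in exosomes, and ubiquitin enzymes and ligases lie lower. Within small GTPase regulators, ARHGAP12 alone gave 15.01 per 1000 in exosomes and 1.04 in cytosol. The libraries overlap for RNA-binding and splicing factors.

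Median genomic spans were close over the larger groups, but differed in both directions between blocks of cytosolic rank. In ranks 1601 to 2924 the median was 3337.5 bases for circRNAs listed in exosomes and 5937 bases for unlisted ones. In ranks 801 to 1600 it was 5499.5 and 4761 bases. Among the 100 most abundant of cytosol the median span was 4316.5 bases for the 76 listed in exosomes and 4225.5 bases for the 24 unlisted. Over the set it was 5289 bases for the 335 shared circRNAs and 5751 bases for the 2589 of cytosol alone. Weighted by reads the median was 5257 and 5184 bases in exosomes and 5257 and 4848 in cytosol. The top 10 circRNAs of each library held 14.6% and 13.5% of reads in exosomes and 10.2% and 9.86% in cytosol. Exosomes had far fewer reads and 360 listed circRNAs of the set, against 2924 in cytosol. Both act in the same direction, by an amount that was not tested. Replicates ranked the 335 shared circRNAs with a Spearman correlation of 0.52 between the exosomal libraries and 0.93 between the cytosolic ones, which share their caller and table and differ in depth.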

How the data were processed

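Per the file headers, the deposited tables give counts of back-splice reads per circRNA by each caller, Ciri and CIRC. The build is hg38 per the submitters' processing notes. The tables also hold a value that the authors label RPTM, read here as reads per 10000000 library reads. The aligner, the caller versions and the library total behind it are not given in the sources used here. Mitochondrial samples were not analysed here. CircRNAs were matched between tables by chromosome, start and end, and reads were averaged over the callers that list the circRNA and rounded. Of 11227 circRNAs, 10950 had 1 host gene span in RefSeq (GRCh38.p14), 185 of them with more than 1 equal candidate, and strand was not used. The set was the 4679 circRNAs with entries of both callers in some table, and 950 passed edgeR's filterByExpr (minimum count 10).

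The quasi-likelihood test of edgeR 4.0.16 (R 4.3.3) ran over the 12 libraries of 6 fractions, with 1 coefficient per fraction, library size as the reads of the set and no factors, and Benjamini-Hochberg adjustment at 0.05. Unlisted circRNAs entered at 0. The SE is the absolute log2 fold change over the square root of F. The procedure was also run on simulated data, with every fraction drawn from cytosolic shares and changes set among abundant circRNAs only. That run does not cover changes in rare circRNAs or other differences between fractions. DESeq2 1.42.0 was an alternative. Members, lists, tests and named circRNAs were chosen with earlier results of these data known. Named were the kept calls with the largest fold change per direction, the 10 most abundant per fraction, the 10 most abundant unlisted on the other side, 2 per host list, and circRNAs of hosts with 3 or more in exosomes. RTN4, ZBTB44, EPS15, RBM33, ANKRD12 and the second HMGCS1 circRNA were picked after their values were seen. The exosome and cytosol libraries held 1209 to 38330 reads of the set, so exosomal values rest on the fewest reads.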

Additional observations from a re-analysis of the deposited data

Results flagged for a closer look

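Entries of the caller headed Ciri alone lie outside the set compared above, since no table lists them by both callers. In exosomes 5 of them stood out with no entry in the cytosol. A 130-base entry inside GRIN2A, a glutamate receptor gene (chr16:10039992-10040121), had 114 and 483 reads, 597 in all, or 4.95% and 21.0% of all exosomal circRNA reads. Another inside RAB37, a small GTPase gene (chr17:74732509-74732835), had 22 and 114 reads, 136 in all. An entry inside GRM4, a metabotropic glutamate receptor gene (chr6:34072902-34073339), had 9 and 77, 86 in all. Entries with no gene at both ends had 44 and 49 reads, 93 in all (chr14:65791609-65791693), and 19 and 31 reads, 50 in all (chr6:157774217-157774284). None of these 5 was listed in any of the other 5 tables. Entries of up to 350 bases held 12.1% and 34.5% of exosomal reads, against 5.20% and 6.46% of cytosolic reads. In the cytosol, an entry inside FGG, the fibrinogen gamma chain gene (chr4:154610158-154611898), had 8236 and 9410 reads, 17646 in all, or 13.6% and 15.8% of cytosolic circRNA reads, and was unlisted in exosomes. It was outside the set too. Why 1 caller alone listed these entries was not tested.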

How the results depend on the processing

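Counts of circRNAs higher in exosomes were 161 on shares, 48 with TMM factors, 54 with RLE factors, 8 on implied library totals, 270 with unlisted circRNAs at 1 read, and 49 to 146 with 1 library left out (49 without exosome replicate 1 and 79 without replicate 2). Counts lower were 45 on shares, 393 with TMM, 346 with RLE, 70 on the scale of the 100 most abundant cytosolic circRNAs, 970 on implied totals, 96 in a fit of the 4 libraries, 16 without a filter, 17 with at least 5 reads in 2 libraries, 4 with unlisted at 1 read, 4 among circRNAs listed in both tables, 12 with DESeq2, 21 with Ciri reads, and 0 to 38 with 1 library left out. With a replicate block 143 were higher and 28 lower. The pairing check gave a correlation of 0.0153 between the deviations of exosome replicate 1 and cytosol replicate 1. With so few exosomal reads it cannot tell whether same-numbered libraries share a culture, which the labels do not say. Exosomal circRNAs listed in cytosol were 83.5% over all entries, 93.1% in the set and 87.7% with at least 5 reads in both exosomal libraries. Cytosolic circRNAs listed in exosomes were 7.23%, 11.5% in the set and 76% among the 100 most abundant. Named circRNAs called on shares or under the alternative whose log2 fold change turned negative on implied library totals were ANKRD12 -2.27, ARHGAP12 -0.50, ARHGAP5 -3.13, CAMSAP1 -1.22, CDYL -4.02, CORO1C -1.92, FAM169A -0.064 and -0.47 and -0.78, FAT1 -2.99, HIPK3 -4.09, ITCH -0.96, MAN1A2 -3.49 and -3.71 and -3.33, NFATC3 -3.46 and -2.68, PLOD2 -1.93, PNN -4.18, RARS1 -4.32, RBM33 -2.13, RBM39 -1.04 and -1.05 and -2.36, SMARCA5 -3.61, STAM -2.36, VAPB -3.53, XPO1 -3.36 and ZCCHC2 -2.80. Those that turned negative with TMM factors were ARHGAP5 -0.70, CDYL -1.64, FAT1 -0.63, HIPK3 -1.73, MAN1A2 -1.14 and -1.42, NFATC3 -1.10, PNN -1.86, RARS1 -1.93, SMARCA5 -1.21, VAPB -1.10, XPO1 -1.06 and ZCCHC2 -0.36. Those with RLE factors were ARHGAP5 -0.48, CDYL -1.42, FAT1 -0.41, HIPK3 -1.51, MAN1A2 -0.93 and -1.21, PNN -1.65, RARS1 -1.71, SMARCA5 -0.99, XPO1 -0.85 and ZCCHC2 -0.13. Those with CIRC reads were ARHGAP12 -7.34, GCN1 -3.32 and RBM33 -8.11. With Ciri reads FAM169A turned to -5.12. Uncalled changes also turned sign. Per library read, nearly every circRNA lay lower in exosomes, where the median log2 fold change of shared circRNAs was -2.59. The cause of these shifts was not tested. With 2 shallow exosomal libraries, leaving out either one removed most calls, and circRNAs with few reads limit every ratio.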

Other observations

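Among the 100 most abundant cytosolic circRNAs, higher calls on shares also included RBM33, an RNA-binding protein gene (chr7:155672867-155680908), with 12 and 12 reads in exosomes and 81 and 46 in cytosol (log2 fold change 2.26 ± 0.45, edgeR adjusted p = 2.1e-04), which Ciri alone listed in exosomes. ANKRD12, an ankyrin repeat gene (chr18:9182382-9221999), had 19 and 4 reads in exosomes and 78 and 64 in cytosol (1.99 ± 0.43, edgeR adjusted p = 4.9e-04). ANKRD12 did not pass without exosome replicate 1 (adjusted p = 0.81), and RBM33 passed with either exosomal library left out. With TMM factors the changes were 0.30 for RBM33 and 0.032 for ANKRD12, and with CIRC reads alone RBM33 turned to -8.11.

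PHC3, PICALM and TMEM181 had 4 circRNAs each in exosomes, all listed in cytosol, with 11 and 10, 11 and 12, and 24 and 12 exosomal reads. Over all 442 exosomal entries, 142 were listed by both callers, 103 by Ciri alone and 197 by CIRC alone. Of the 73 exosomal circRNAs that the cytosol table lacks, 31 were listed in no other table and 49 had at most 3 reads over both libraries.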
